A study of Mus musculus with 6 samples.

Results

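Stem and progenitor genes were followed in bone marrow (BM) cells that carried JAK3 M511I with or without Phf6. They were 10 of the 54532 genes in the deposited table, taken by name: the receptor genes Kit and Flt3, the surface marker genes Cd34, Ly6a and Cd44, and the transcription factor genes Meis1, Hoxa7, Hoxa9, Hoxa10 and Mef2c. RNA-seq libraries were 6, of which 3 (WT 1, WT 2 and WT 3) were WT by their labels and 3 (KO 1, KO 2 and KO 3) were KO. Only the labels of WT 1 and KO 1 name Phf6. In the other labels the digit of the gene symbol rises, and all were read as Phf6 from the series' design text. The C57BL/6 mice were sampled on day 100 post-transplantation. All 6 libraries came from BM of male recipients given lineage-negative cells of male donors, and the study used mice 8 weeks old. The donor cells had been transduced with a MSCV-JAK3 M511I-IRES-GFP retrovirus, so both groups carried activated JAK3, a kinase of cytokine receptor signaling, and controls without JAK3 M511I were not analysed here. KO donors were Vav1-Cre;Phf6 fl/y, with Cre driven by the Vav1 promoter in hematopoietic cells, and WT donors had floxed Phf6 without Cre. The recipients had been irradiated, and residual host cells could be part of the marrow. Whether GFP-positive cells were sorted before RNA extraction, and whether each library was 1 animal, was not given in the sources used here.

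Hematopoietic stem cells and multipotent progenitors carry the receptor tyrosine kinases Kit and Flt3, which pass on survival and growth signals from their ligands. Meis1, a TALE homeodomain protein, and the posterior HOXA proteins bind DNA together with PBX proteins, keep progenitors in an immature state, and are turned down as blood cells mature. HOXA genes, MEIS1 and MEF2C are known for their high activity in immature subtypes of T-ALL (T-cell acute lymphoblastic leukemia), the disease modelled here. Normal T-cell precursors lose Kit, Flt3 and Mef2c as they commit to the T lineage.

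The libraries held between 13015823 and 18235095 reads recovered from the deposited FPKM (fragments normalized to gene length and library size). A gene with 0 reads could have had up to between 0.161 and 0.255 RPM, the value of 3 reads, and all intervals from reads cover counting error only. RPM and pooled rates were taken over the library size implied by the FPKM, not over the recovered reads. That size ran from 11756022 in WT 2 to 18627812 in KO 1. It was below the recovered reads in WT 2 and above them in every other library. Pooled rates over recovered reads were not computed. WT 2 stood apart: 17.1% of its reads fell on genes of under 1000 bases (3.11% to 5.01% elsewhere), and Pearson's r of its log2 values, across genes, was 0.779 with WT 1 and 0.746 with WT 3, against 0.948 between WT 1 and WT 3 and 0.963 to 0.973 among the KO libraries. Tests of the 10 genes are therefore also given without WT 2, and counts over gene lists where leaving it out changed them by over 1.5 times. Phf6 itself had an FPKM of 7.47, 3.67 and 8.02 in WT 1 to WT 3 and of 6.73, 5.5 and 5.11 in KO 1 to KO 3, which is a change of -0.073 in log2 (limma, adjusted p = 0.893). This value sums the whole gene, also the part outside the floxed exons, so it does not check the labels.

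Most of the 10 genes were lower in KO marrow, and Kit was the exception. Mean FPKM was lower in KO for 9 genes and higher for 1, Kit. The WT and KO values did not overlap for 8 of the 10 genes, 7 of them lower and 1 higher in every KO library; among the 28116 genes with at least 1 read, 36.2% did not overlap (18.1% lower and 18.0% higher). On log2(FPKM + 1), 3 of the 10 genes passed the filter on low values and 1 of these, Cd44, passed an adjusted p of 0.05, where 26.4% of all 13393 genes tested did so (13.3% lower, 13.1% higher). A second model on the recovered reads, with a filter of at least 10 reads in at least 2 libraries, held 8 of the 10 genes and called 4 of them, Kit, Cd44, Meis1 and Mef2c, beside 28.1% of 16653 genes (15.8% lower, 12.3% higher). Cd34, Meis1, Hoxa7 and Mef2c entered that model only through their WT reads, so the calls of Meis1 and Mef2c do not add to a count of changed genes. In these bulk samples fewer cells of a type and less RNA per cell cannot be told apart.

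**Figure D1:**
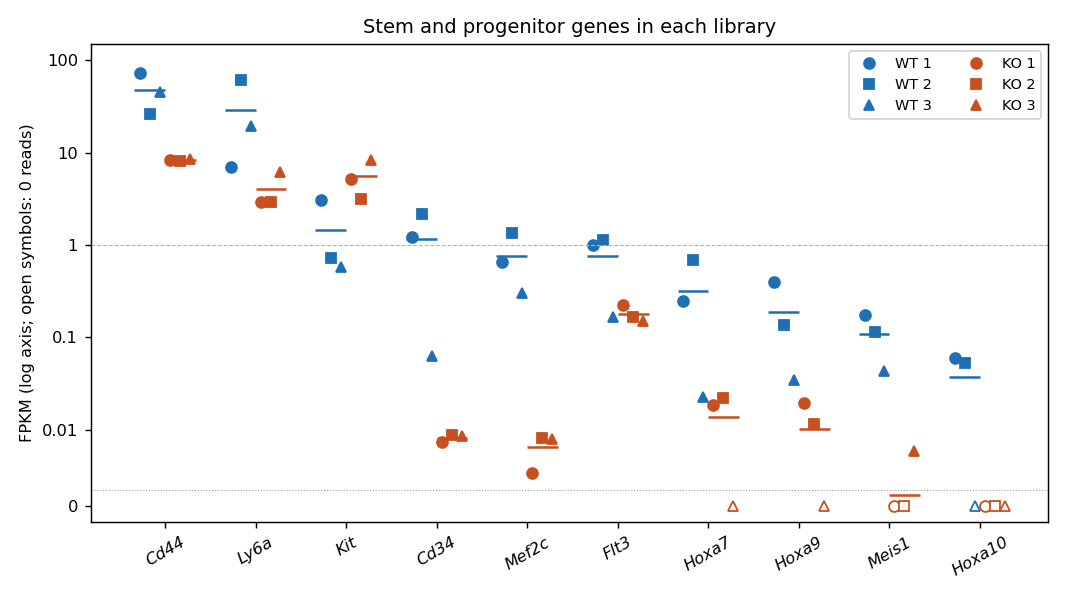
FPKM of the 10 genes in each library on a log axis, with lines at the group means (blue, WT; orange, KO; n = 3 each), open symbols on the lowest line for 0 reads and a dashed line at 1 FPKM. Cd44 led the WT and the KO means, Kit was the gene with higher KO values, and 7 genes lay under 1 FPKM in every KO library.

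Levels per length covered a wide range within each group. In WT, the means were 48.1 ± 23.6 FPKM (SD, n = 3) for Cd44 and 29.2 ± 28.6 for Ly6a, neighbours that did not differ beyond their spread. The lowest Ly6a value of WT, 6.94, lay above the highest Kit value, 3.07. From Kit (1.46 ± 1.4) over Cd34, Mef2c, Flt3, Hoxa7, Hoxa9 and Meis1 down to Hoxa10 (0.0372 ± 0.0324), the range of each gene in WT overlapped that of its neighbour. In KO, Cd44 (8.30 ± 0.172), Kit (5.55 ± 2.61) and Ly6a (4.03 ± 1.87) led, with overlapping ranges between neighbours, and Flt3 followed at 0.180 ± 0.0400. The other 6 genes had KO means of 0.0136 or less. Among the WT libraries, WT 3 held the lowest value of 8 of the 10 genes and the highest of none; over all genes tested WT 3 was the lowest of the 3 in 28.6%. The 7 genes under 1 FPKM in every KO library had 466, 564 and 108 reads in all in WT 1 to WT 3 and 31, 21 and 19 in KO 1 to KO 3. As these 7 were picked by their low KO values, the comparison adds no support.

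The promoters of the gene that was higher in KO (Kit), of the gene past the threshold on FPKM (Cd44) and of the gene with the smallest adjusted p on reads (Mef2c) are shown to set the factors' known binding letters against them. Windows were taken from RefSeq on GRCm38.p6, from 250 bases before to 50 after a start site, at chr5:75574737-75575036 on the plus strand for Kit, chr2:102901616-102901915 on the minus strand for Cd44 and chr13:83503784-83504083 on the plus strand for Mef2c. All are written from 5′ to 3′ along the gene, with a match to any motif searched in capitals.
Kit promoter: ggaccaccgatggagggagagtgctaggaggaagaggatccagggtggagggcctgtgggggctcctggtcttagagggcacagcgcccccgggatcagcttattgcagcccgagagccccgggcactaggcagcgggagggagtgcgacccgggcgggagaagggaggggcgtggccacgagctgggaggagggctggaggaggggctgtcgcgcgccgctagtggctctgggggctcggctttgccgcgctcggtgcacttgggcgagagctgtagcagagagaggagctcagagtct
Cd44 promoter: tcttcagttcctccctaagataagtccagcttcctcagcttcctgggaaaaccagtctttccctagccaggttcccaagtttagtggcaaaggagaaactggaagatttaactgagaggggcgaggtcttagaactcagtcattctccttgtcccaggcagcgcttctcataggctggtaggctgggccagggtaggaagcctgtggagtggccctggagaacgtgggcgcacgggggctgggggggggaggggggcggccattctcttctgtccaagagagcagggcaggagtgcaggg
Mef2c promoter: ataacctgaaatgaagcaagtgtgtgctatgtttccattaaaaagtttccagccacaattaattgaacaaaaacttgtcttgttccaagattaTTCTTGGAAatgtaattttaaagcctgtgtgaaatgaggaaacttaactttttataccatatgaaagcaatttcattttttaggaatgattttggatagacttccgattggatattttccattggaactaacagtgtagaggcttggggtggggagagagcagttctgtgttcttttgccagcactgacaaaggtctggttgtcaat
Windows were found for 9 of the 10 genes, all but Ly6a. Where a gene had several, the window nearest the gene's 5′ end in the deposited table was used, which lay 71 bases away for Kit and at 0 bases for Cd44 and Mef2c. The windows of Hoxa7 and Hoxa9 lay 3281 and 3719 bases from that end. Both strands were searched for TTCNNNGAA, the GAS letters read by STAT factors downstream of JAK kinases, for TGATTNAT, read by PBX with HOX proteins, and for TGACAG, read by MEIS proteins. TTCNNNGAA was in 1 of the 9 windows, as TTCTTGGAA in Mef2c at base -157 from the start, and it was in 8.30% of all 32851 windows. TGATTNAT (3.22% of all windows) and TGACAG (19.2%) were in none of the 9. The Kit window was 69% G and C with a CpG observed over expected of 0.621, against a median of 52.7% and 0.384 over all windows, and the Mef2c window was 35.7% G and C with a ratio of 0.109.

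Kit (ENSMUSG00000005672, GRCm38, chromosome 5, 75574916 to 75656722, plus strand), the receptor of stem cell factor, had FPKM values of 3.07, 0.725 and 0.572 in WT 1 to WT 3 and of 5.17, 3.15 and 8.34 in KO 1 to KO 3. These were 422, 76 and 79 reads in WT and 858, 442 and 1196 in KO. All KO libraries lay above all WT libraries, but WT 1 and KO 2 were nearly level. The KO mean was 3.82-fold that of WT. The log2 fold change was 1.48 (SE 0.48, 95% interval 0.34 to 2.62, limma, adjusted p = 0.0645), so the difference did not pass the threshold on FPKM. On the recovered reads it was 2.22 with a standard error of 0.68 and passed narrowly (voom, adjusted p = 0.0495). Without WT 2 it was 1.30 (limma, adjusted p = 0.0736) and 1.96 on reads (voom, adjusted p = 0.0574), and without WT 1, the WT library richest in Kit, it was 1.91 (limma, adjusted p = 0.0284). On reads the call was lost with the replicate block (voom, adjusted p = 0.0589) and without WT 2, WT 3, KO 1, KO 2 or KO 3. Over the 25 alternatives the adjusted p ranged from 0.0208 to 0.202.

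Flt3 (ENSMUSG00000042817, chromosome 5, 147330741 to 147400489, minus strand), the receptor of FLT3 ligand on lymphoid-primed progenitors, was higher than in KO in 2 of the 3 WT libraries. Its FPKM was 0.997, 1.13 and 0.167 in WT 1 to WT 3 and 0.226, 0.165 and 0.151 in KO 1 to KO 3, from 95, 82 and 16 reads and from 26, 16 and 15 reads. WT 3 fell within the KO range, so the groups overlapped. Pooled over libraries, the rate of reads was 4.0 times higher in WT (95% exact counting interval 2.96 to 5.48), but between libraries the difference was not past the threshold (voom, adjusted p = 0.212). It was past it only without WT 3, among the alternatives run (voom, adjusted p = 0.0131), and not without WT 2 (voom, adjusted p = 0.248).

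Related genes were followed in 11 lists. Of the 35 different list genes past the threshold on FPKM, 15 were under 1 FPKM in every library of one group, so they met the filter only through the other group and could pass in 1 direction only.

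Class III receptor kinases and their ligands, the family of Kit and Flt3, had genes higher and lower in KO. Of 11 genes, 6 were tested on FPKM, with 2 higher, 3 lower (4 of these 5 met the filter through one group) and a median log2 fold change of 0.25, against 0.086 over all genes. Pdgfrb, a platelet-derived growth factor receptor, rose from 0.367, 0.109 and 0.0589 FPKM in WT to 22.3, 13.6 and 17.1 in KO (log2 fold change 3.97, limma, adjusted p = 0.00032). Il34, a ligand of the CSF1 receptor, had 0, 1 and 2 reads in WT and 300, 152 and 208 in KO (log2 fold change 2.85, limma, adjusted p = 0.00055). Both passed under all 16 alternatives of the planned set. Csf1r, the macrophage growth factor receptor, fell (log2 fold change -2.97, limma, adjusted p = 0.0127), Pdgfb, a ligand of PDGF receptors, fell (log2 fold change -2.18, limma, adjusted p = 0.00768) and Flt3l, the ligand of Flt3, fell (log2 fold change -0.98, limma, adjusted p = 0.0275). FPKM of Flt3l was 22.3, 30.9 and 22.2 in WT and 11.4, 11.2 and 13.9 in KO, and its call was lost on TPM (limma, adjusted p = 0.712). With each KO library left out in turn, 1 gene was lower, Pdgfb.

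Adaptors and phosphatases of Kit and Flt3 signaling had 14 of 15 genes tested, of which 6 passed, all lower (Lyn and Gab2 met the filter only through WT), with a median of -0.79. Lyn, a Src family kinase, fell from 32.8, 24.0 and 8.76 FPKM to 0.264, 0.359 and 0.351 (log2 fold change -3.93, limma, adjusted p = 0.00202). Gab2, a docking adaptor, fell (log2 fold change -1.92, limma, adjusted p = 0.00411). Both kept the call under every alternative on FPKM. Inpp5d, the SHIP1 phosphatase, fell (log2 fold change -2.10, limma, adjusted p = 0.00234), Sh2b3, an inhibitory adaptor, (-1.63, limma, adjusted p = 0.00853), Dok2, another inhibitory adaptor, (-1.77, limma, adjusted p = 0.00894) and Pik3cd, a PI3-kinase subunit, (-1.72, limma, adjusted p = 0.0382). On TPM these 4 were not past the threshold, the list had 2 lower genes and its median was 0.016, while the median over all genes moved from 0.086 to 0.857.

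**Figure D2:**
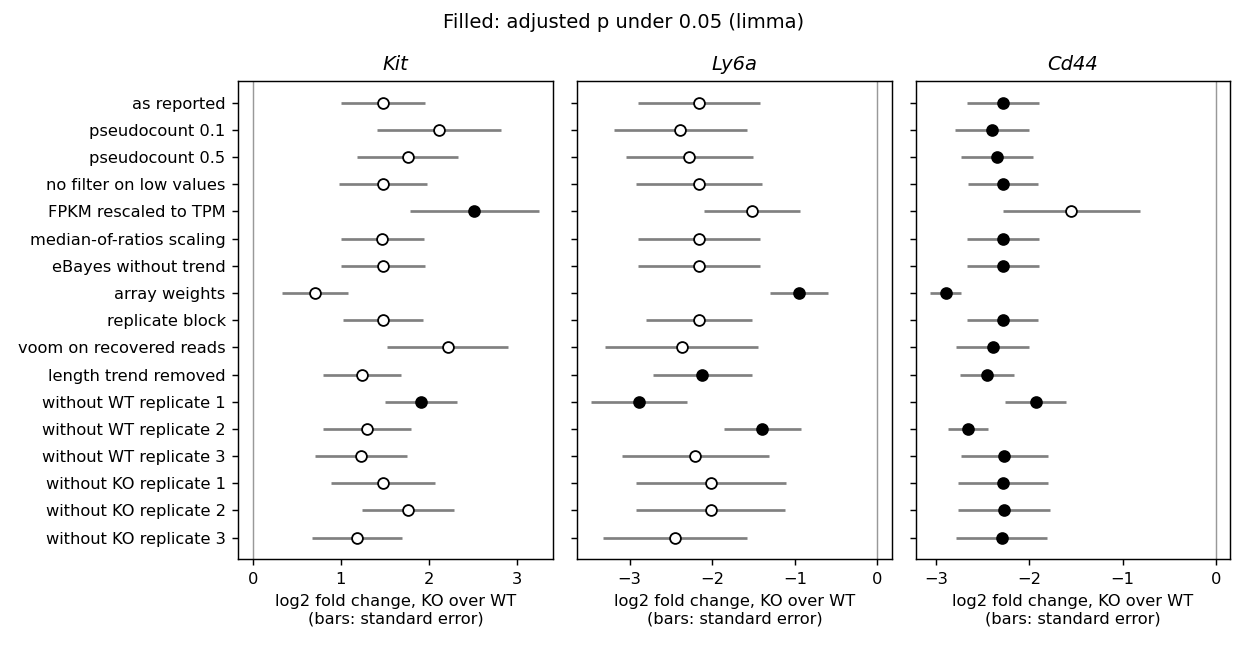
Log2 fold change, KO over WT, of Kit, Ly6a and Cd44 with its standard error, as reported and under each alternative setting (filled, adjusted p under 0.05 in limma; the vertical line is 0). The direction held for the 3 genes in every setting, Cd44 lost its call on TPM, and Kit and Ly6a crossed the threshold in a few settings.

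Cd34 (ENSMUSG00000016494, chromosome 1, 194938819 to 194961279, plus strand), a sialomucin of progenitors, was almost without reads in KO. Its FPKM was 1.21, 2.18 and 0.0620 in WT 1 to WT 3 and 0.00736, 0.00871 and 0.00852 in KO 1 to KO 3. The reads were 136, 187 and 7 in WT and 1 in each KO library. The groups did not overlap, and WT 3 was much nearer to KO than to the other WT libraries. The pooled rate was 130 times higher in WT (95% exact counting interval 44.1 to 634). Against the spread between libraries this was not past the threshold (voom, adjusted p = 0.0674), nor without WT 2 (voom, adjusted p = 0.0875), and it was past it without WT 3 (voom, adjusted p = 0.00237).

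Ly6a (ENSMUSG00000075602, chromosome 15, 74994877 to 74998031, minus strand) codes for Sca-1, the marker of mouse stem cells that interferon also induces. FPKM was 6.94, 61.5 and 19.2 in WT 1 to WT 3 and 2.94, 2.95 and 6.19 in KO 1 to KO 3. Every KO value was under every WT value, but WT 1 and KO 3 lay close together and WT 2 was the highest by far. The WT mean was 7.26-fold that of KO. The log2 fold change was -2.16 (SE 0.74, 95% interval -3.94 to -0.39, limma, adjusted p = 0.0774). Without WT 2 it was -1.39 and past the threshold (limma, adjusted p = 0.0478), without WT 1 it was -2.88 and past it (limma, adjusted p = 0.0247), and on TPM the groups overlapped, with 21 in WT 1 and 24.1 in KO 3. Reads of near-identical Ly6 genes could have been split between them, so the value is uncertain.

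The Ly6 family did not move as 1 group. Of 14 genes, 7 were tested, 1 was higher and 2 were lower, with a median of -0.41 that was 0.43 on TPM. Ly6c2, a marker of monocytes and of memory T cells, fell from 260, 361 and 282 FPKM to 3.70, 3.89 and 5.69 (log2 fold change -5.80, limma, adjusted p = 0.000233). Ly6g, the neutrophil marker, fell (log2 fold change -5.36, limma, adjusted p = 0.00268), and it met the filter only through WT. Ly6c1, which lies beside Ly6c2, rose from 1.55, 1.17 and 0.346 to 5.95, 9.58 and 13.2 (log2 fold change 2.38, limma, adjusted p = 0.00548). Without WT 2, 3 genes were higher and 3 lower. The paralogs Ly6c1 and Ly6c2 can share reads.

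Cd44 (ENSMUSG00000005087, chromosome 2, 102811141 to 102901665, minus strand), the hyaluronan receptor that marks early thymic progenitors and activated T cells, was the one gene of the 10 past the threshold on FPKM, and it was lower in KO. Values were 73.0, 26.1 and 45.3 FPKM in WT 1 to WT 3 and 8.31, 8.12 and 8.46 in KO 1 to KO 3. The KO libraries were nearly identical and all lay below the lowest WT library, which was WT 2. The WT mean was 5.80-fold that of KO. The log2 fold change was -2.28 (SE 0.38, 95% interval -3.21 to -1.36, limma, adjusted p = 0.00675), and it was -2.40 on reads (voom, adjusted p = 0.00529). Without WT 2 it was -2.65 (limma, adjusted p = 0.000359). On TPM, in which WT 2 had 29.1 and the KO libraries 32.4 to 33.9, the groups overlapped and the call was lost (log2 fold change -1.55, limma, adjusted p = 0.16). FPKM of Kit divided by that of Cd44, a ratio within a library that no scaling changes, was 0.0420, 0.0278 and 0.0126 in WT and 0.622, 0.388 and 0.985 in KO. Kit was higher and Cd44 lower in every KO library on FPKM, so the ratios could not overlap and add no support.

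Of the protein-coding genes tested, the 3 with the pattern most like that of Cd44 over the 6 libraries were Myo5a, Ddx43 and Vav3, with root mean square differences of 0.0569, 0.134 and 0.138 on the centred log2 scale. Myo5a had 9.0, 2.53 and 4.89 FPKM in WT and 0.123, 0.219 and 0.180 in KO. All 3 genes were lowest in WT 2 among the WT libraries, as were 48.8% of all genes tested. They were picked by their likeness to Cd44 over these libraries, so this adds no support. All 3 were under 1 FPKM in every KO library and met the filter only through WT. Their falls are understated on log2(FPKM + 1).

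Among 14 partners of CD44 and hyaluronan genes, 7 were tested, of which 1 was higher and 2, Cd44 itself included, were lower, with a median of 0.54. Hmmr, an intracellular hyaluronan-binding protein of the mitotic spindle, rose from 4.13, 2.26 and 1.29 FPKM to 8.78, 11.9 and 9.89 (log2 fold change 1.72, limma, adjusted p = 0.0133). Cd74, the invariant chain and receptor that signals through CD44, had 54.8, 2496 and 49.1 FPKM in WT and 2.44, 1.4 and 2.20 in KO (log2 fold change -6.00, limma, adjusted p = 0.0263). WT 2 was far above the other WT libraries in Cd74, and without it the adjusted p was 7.27e-05 (limma). With each KO library left out in turn, Cd44 was the single lower gene of the list, and Hmmr lost its call without KO 2 or KO 3. Without WT 2, 2 genes were higher and 3 lower.

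Meis1 (ENSMUSG00000020160, chromosome 11, 18879817 to 19018985, minus strand), the cofactor of HOXA9, was scarce in WT and nearly without reads in KO. It had 28, 14 and 7 reads in WT 1 to WT 3 and 0, 0 and 1 in KO 1 to KO 3, or 0.172, 0.113 and 0.0429 FPKM against 0, 0 and 0.00590. Groups did not overlap, and a count of 0 still allowed 0.0153 FPKM in KO 1 and 0.0181 in KO 2. The pooled rate was 57.9 times higher in WT, with a 95% exact counting interval of 9.92 to 2334 that shows how little the single KO read fixes the size. In the reads model, which it entered only through WT, the adjusted p was 0.00944 (voom), 0.0128 without WT 2, 0.0547 without KO 1 and 0.0540 without KO 2. Of its exonic bases, 9.77% were shared with Gm37818 and 8.51% with Gm16140, both without reads in the 6 libraries.

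The Hoxa members had few reads in every library. Hoxa9 (ENSMUSG00000038227, chromosome 6, 52223100 to 52231089, minus strand) had 34, 9 and 3 reads in WT 1 to WT 3 and 2, 1 and 0 in KO 1 to KO 3. The groups did not overlap, but WT 3 and KO 1, with 3 and 2 reads, were both at or under the floor of 3 reads. The pooled rate of Hoxa9 was 18.1 times higher in WT (95% exact counting interval 5.83 to 91.1). With too few reads for the reads model, Hoxa9 was tested only without a filter, where it did not pass (limma, adjusted p = 0.251). Hoxa7 (ENSMUSG00000038236, chromosome 6, 52214491 to 52221854, minus strand) had 11, 23 and 1 reads in WT and 1, 1 and 0 in KO. WT 3 was separated from KO 1 and KO 2 only by the scaling of a single read, the pooled ratio was 20.7 (5.32 to 178), and the difference did not pass (voom, adjusted p = 0.132), nor without WT 2 (voom, adjusted p = 0.177), but did without WT 3 (voom, adjusted p = 0.0209). The antisense gene Hoxaas3 shared 20.4% of the exonic bases of Hoxa7, and strand use in the counting was not given, so reads of the pair cannot be told apart. Hoxa10 (ENSMUSG00000000938, chromosome 6, 52231197 to 52240854, minus strand) had 3, 2 and 0 reads in WT and 0 in every KO library, which is at or under the floor in both groups.

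**Figure D3:**
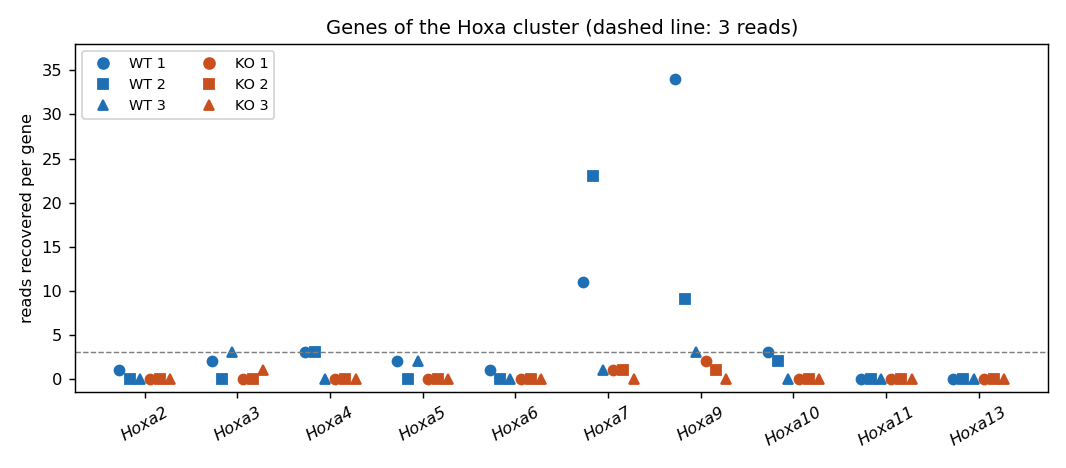
Reads recovered for 10 genes of the Hoxa cluster in each library, in their order in the cluster, with a dashed line at 3 reads. Hoxa7 and Hoxa9 exceeded the line, in WT 1 and WT 2 only, and the other 8 genes shown had at most 3 reads in any library.

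No gene of the whole Hoxa cluster passed the filter on FPKM. Of its 11 genes, 9 had at most 3 reads in every library, and Hoxa11 and Hoxa13 had none. Summed over the cluster, FPKM was 1.03, 1.03 and 0.158 in WT and 0.0856, 0.0335 and 0.0103 in KO, again with WT 3 nearest to KO. Of 11 Hoxb, Hoxc and Hoxd genes known from blood progenitors, 7 were at 0 reads in all libraries and 1 was tested: Hoxb4 had 1.41, 2.19 and 1.21 FPKM in WT and 0.649, 0.644 and 0.654 in KO, which is a change of -0.64 in log2 (limma, adjusted p = 0.0626). Its groups did not overlap, and it passed without WT 2 (limma, adjusted p = 0.0373).

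Cofactors of HOX proteins and activators of Hoxa genes were, for the larger part, expressed and not past the threshold. Of 18 genes, 12 were tested and 1 passed, with a median of 0.26. The lower gene was Meis3, a relative of Meis1, with 9.27, 13.8 and 10.2 FPKM in WT and 2.77, 2.26 and 5.01 in KO (log2 fold change -1.51, limma, adjusted p = 0.0157); the call was lost on TPM and without KO 1 or KO 2. The 2 others with the smallest p-values were higher on average, Pbx3 (log2 fold change 0.63, limma, adjusted p = 0.0797), a partner of HOXA9, and Psip1 (0.64, limma, adjusted p = 0.109), which tethers menin and MLL to chromatin. Without WT 2 the list had 2 higher and 2 lower genes.

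Mef2c (ENSMUSG00000005583, chromosome 13, 83504034 to 83667080, plus strand), a MADS-box factor of lymphoid and myeloid progenitors and of B cells, was almost without reads in KO. It had 159, 247 and 74 reads in WT 1 to WT 3 and 1, 2 and 2 in KO 1 to KO 3, that is 0.655, 1.34 and 0.304 FPKM against 0.00342, 0.00808 and 0.00791. All WT libraries lay far above the KO libraries, and the lowest of them, WT 3, was the lowest WT library for the other 4 factor genes as well. The pooled rate was 113 times higher in WT (95% exact counting interval 48.3 to 351). In the reads model, which it entered only through WT, the adjusted p was 0.00392 (voom) and 0.00172 without WT 2, and the difference was not past the threshold on FPKM without a filter (limma, adjusted p = 0.0713).

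Of 8 genes of the Mef2 family and of the class IIa deacetylases that hold MEF2 proteins inactive, 6 were tested and 2 passed, both lower, with a median of 0.50. Mef2a fell (log2 fold change -1.68, limma, adjusted p = 0.0343), a call that was lost on TPM, and Hdac5 fell from 6.71, 21.8 and 6.80 FPKM to 1.72, 0.210 and 0.0920 (log2 fold change -2.86, limma, adjusted p = 0.0118). Hdac7, the deacetylase of thymocytes, had 46.7, 16.1 and 45.1 FPKM in WT and 95.5, 81.5 and 77.1 in KO (log2 fold change 1.35, limma, adjusted p = 0.0688). Both calls were lost with KO 2 or KO 3 left out, and that of Mef2a also with WT 1, WT 3 or KO 1 left out.

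Of 15 transcription factor and receptor genes of early T-cell precursors, a list that also holds Kit, Mef2c, Meis1 and Hoxa9, 7 were tested and 5 passed with lower KO values, while Kit was higher and did not pass. The 5 were under 1 FPKM in every KO library and met the filter only through WT, so their direction was fixed by the filter and neither their count nor the median of the list, -2.98, adds support. Spi1, the PU.1 factor of myeloid cells and uncommitted T precursors, fell from 67.7, 160 and 13.3 FPKM to 0.359, 0.448 and 0.323 (log2 fold change -5.30, limma, adjusted p = 0.00511). Lmo2, a bridging factor and T-ALL oncogene, fell from 11.9, 24.7 and 13.1 to 0.297, 0.264 and 0 (log2 fold change -3.83, limma, adjusted p = 0.000656). Hhex, a homeobox factor of progenitors, fell (log2 fold change -2.98, limma, adjusted p = 0.00685), Nfe2, a factor of erythroid and megakaryocytic cells, (-3.76, limma, adjusted p = 0.0123) and Erg, an ETS factor of stem cells, (-1.72, limma, adjusted p = 0.0175). On reads, 13 genes were tested and 11 passed, Kit among them with higher values and 10 with lower, of which 7 had under 10 reads in every KO library and are subject to the same limit. Without KO 1 or KO 2, 3 genes were lower on FPKM.

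Stem cell genes split. Of 20 genes, 8 were tested, with 2 higher, 3 lower (Cd93 and Prom1 met the filter only through WT) and a median of -1.24. Cd93, a receptor of stem cells and myeloid cells, fell from 6.53, 9.05 and 3.19 FPKM to 0.137, 0.105 and 0.521 (log2 fold change -2.46, limma, adjusted p = 0.00424). Prom1, the CD133 antigen, fell (log2 fold change -1.91, limma, adjusted p = 0.0173) and Ifitm1, an interferon-induced membrane protein, (-4.82, limma, adjusted p = 0.020). Gfi1, a repressor that restrains stem cell division and acts in T-cell development, rose from 9.37, 5.26 and 7.29 to 65.5, 39.1 and 30.5 (log2 fold change 2.43, limma, adjusted p = 0.00425). Slamf1, the CD150 antigen of stem cells and T cells, rose (log2 fold change 1.10, limma, adjusted p = 0.0468), a call held under 6 of 16 alternatives. With each KO library left out in turn, 1 gene was lower and 1 higher, and without WT 2, 5 were lower.

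Progenitor factors also moved both ways: 14 of 15 genes were tested, 4 were higher and 3 lower, and the median was 0.17. Of the 3 lower, Lmo2 and Cebpa met the filter only through WT and could only be called lower. Sox4, a factor of lymphoid progenitors, rose from 0.378, 3.26 and 0.0538 FPKM to 38.4, 37.3 and 29.9 (log2 fold change 4.29, limma, adjusted p = 0.00228). Myb, needed by progenitors and thymocytes, rose from 7.25, 12.7 and 3.06 to 82.6, 81.8 and 52.9 (log2 fold change 3.22, limma, adjusted p = 0.00423). Ikzf2, the Helios factor, rose (log2 fold change 2.70, limma, adjusted p = 0.00271), and Gfi1 and Lmo2 are in this list too. Cebpa and Cebpe, which drive granulocyte development, fell (log2 fold changes -3.04 and -5.05, limma, adjusted p = 0.0142 and 0.0106). Without KO 1, 1 gene was lower, and without WT 2, 6 were higher and 5 lower.

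**Figure D4:**
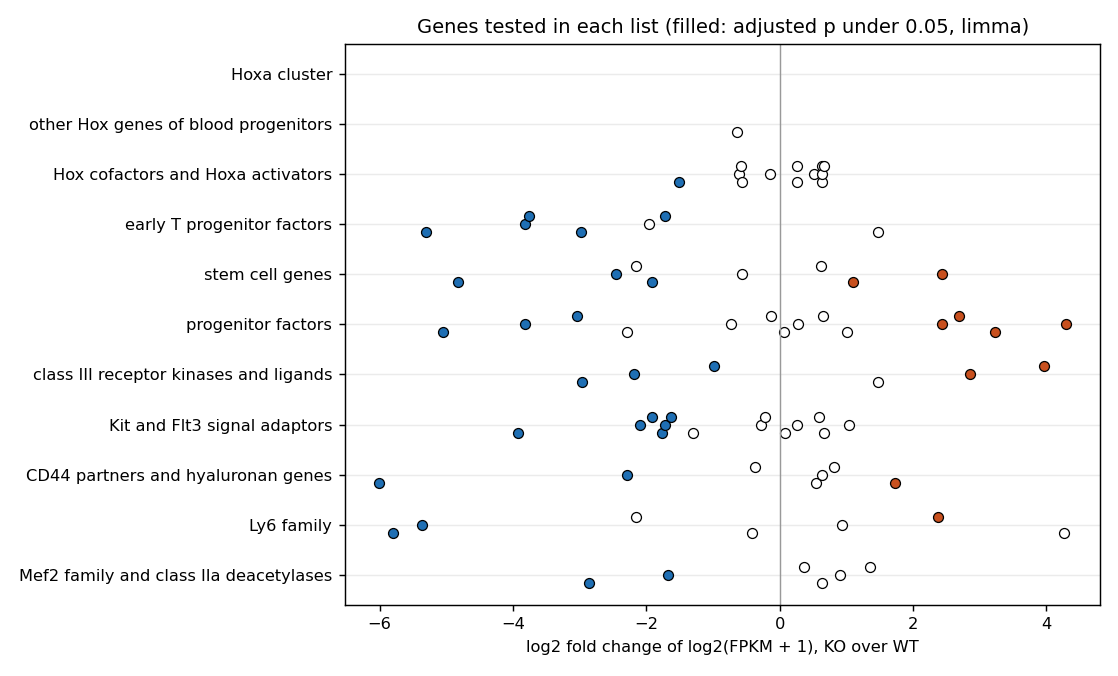
Log2 fold change on log2(FPKM + 1), KO over WT, of each gene tested in 11 lists of related genes (1 row a list; filled orange, higher and filled blue, lower at an adjusted p under 0.05 in limma; open, not past it). The Hoxa cluster had no gene tested, and the list of early T progenitor factors had 5 lower genes that met the filter only through WT. The list of progenitor factors had 4 higher and 3 lower, of which 2 met the filter only through WT.

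For most other cell types the summed markers were lower in KO without overlap, while Kit was higher. The 12 neutrophil markers, led by S100a9, S100a8 and Ngp, were all lower in KO, with a summed FPKM of 33144, 93896 and 6709 in WT 1 to WT 3 and of 91.6, 266 and 283 in KO 1 to KO 3. Of 9 monocyte and macrophage markers 7 were tested and 5 were lower (sums 590 to 4972 in WT and 17.6 to 28.3 in KO, led by Lyz2), of 8 B cell markers 4 were tested and 1 was lower (707 to 2412 and 15.7 to 69.4, led by Ighm), and of 6 NK cell markers 4 were tested and all 4 were lower (42.1 to 93.6 and 0.334 to 1.43, led by Klrb1c). Dendritic cell markers had 1 of 8 tested and lower (17.0 to 35.9 and 0.333 to 0.430, led by Itgax, with Siglech at 0 in KO), and mast cell and basophil markers had 4 of 8 tested and 2 lower (32.0 to 4080 and 0.902 to 1.29, led by Mcpt8, with Tpsab1 at 0 in all libraries). Of these calls, all of NK cells, dendritic cells, and mast cells and basophils met the filter only through WT. So did 3 neutrophil and 2 monocyte and macrophage calls, and all of these could only be called lower. Over all genes tested, 13.3% were lower. Without WT 2, 4 B cell and 4 mast cell and basophil markers were lower, without WT 1, KO 1, KO 2 or KO 3 1 mast cell and basophil marker was, and without KO 1 or KO 2 3 monocyte and macrophage markers were. WT 3, with the lowest neutrophil and monocyte sums among WT, was also the lowest WT library for 8 of the 10 genes, all but Ly6a and Cd44 (28.6% over all genes tested). WT 2, with the highest of these sums, was the highest WT library for 5 of the 10, Cd34, Ly6a, Flt3, Hoxa7 and Mef2c, against 40.5% over all genes tested. WT 1 was the highest for the other 5. Cd44, alone of the 10, and the NK cell sum were lowest in WT 2, as were 48.8% of all genes tested.

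T cell markers, those of the disease modelled here, had sums with overlapping ranges, 908, 2056 and 992 in WT and 1174, 1094 and 1080 in KO, led by Lck, Thy1 and Cd3d. Of the 9 tested, 1 passed the threshold and was lower, Cd5, which is named after its values were seen, while without WT 2 there were 3 higher and 3 lower, and without WT 3, KO 2 or KO 3 none passed. Erythroid markers had a sum of 19903 in WT 2, against 48.1 and 182 in the other WT libraries and 9.82 to 41.1 in KO, with Hbb-bs in the lead and, by limma, 0 of 5 tested past the threshold on FPKM and 0 of 6 by voom on reads (4 of 5 at an unadjusted p under 0.05 by limma). Without WT 2, 1 erythroid marker was higher and 3 were lower, and without WT 1, 3 were lower. Megakaryocyte markers had sums of 4.19 to 54.7 in WT and 0.264 to 0.321 in KO, 0 of 2 tested past it by limma and 2 of 2 by voom (2 of 2 at an unadjusted p under 0.05 by limma) and Gp1bb at 0 in all libraries. Both megakaryocyte markers were lower without WT 2, and 1 was without WT 3. For endothelial and stromal cells 1 of 8 markers was tested, Pecam1, which was higher in KO, a call lost without any one library other than WT 2. The sums, 5.76 to 11.2 in WT and 17.2 to 18.2 in KO, were almost all Pecam1, which had 18.1 FPKM in KO 1. Cxcl12 was lower, with 53, 72 and 7 reads in WT and 1, 0 and 0 in KO (voom, adjusted p = 0.0187), a model it entered only through WT. Col1a1 had 20, 19 and 9 reads in WT and 5, 1 and 8 in KO (voom, adjusted p = 0.0965). Kdr and Emcn had at most 3 reads in any library. The part of these cells in the results of Cd44, Kit and the other members was not tested.

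**Figure D5:**
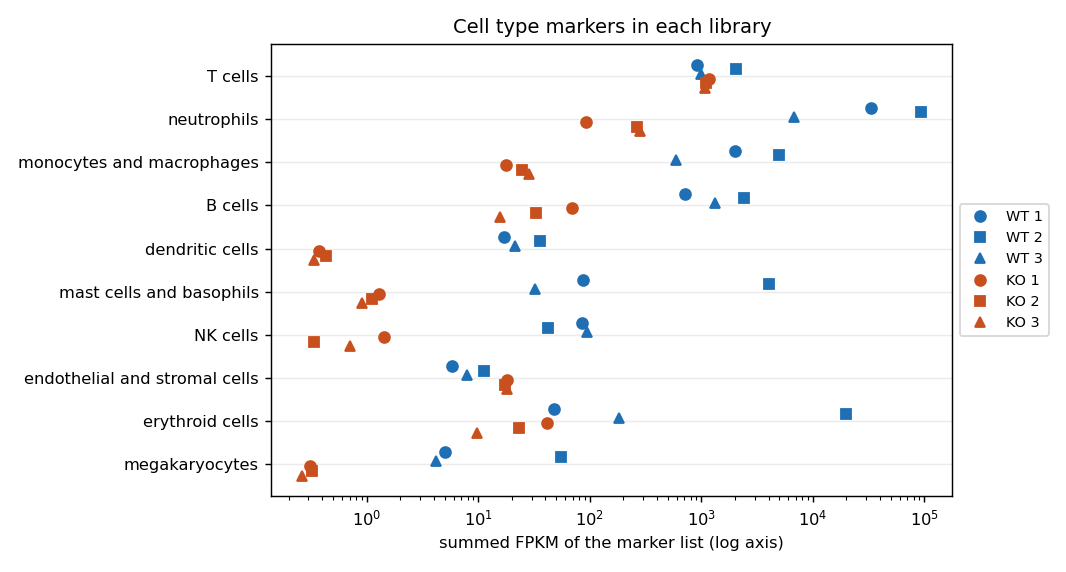
Summed FPKM of the markers of 10 cell types in each library, on a log axis (blue, WT; orange, KO). T cell sums lay between 908 and 2056 in all 6 libraries, while the neutrophil sums lay at 6709 or more in WT and at 283 or less in KO.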

How the data were processed

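RNA of BM cells was measured in 3 WT and 3 KO libraries, with groups taken from the genotype labels. The labels name a gene symbol whose digit rises within each group, and it was read as Phf6 from the series' design text. Per the study's methods and labels, total RNA was extracted with Trizol, made into NEBNext Ultra libraries and sequenced as pairs on a NovaSeq instrument. The submitters' processing notes name HISAT2 2.0.5 and featureCounts 1.5.0-p3 with GRCm38 (mm10), and strand use is not given in the sources used here. The authors deposited FPKM per gene and library, with gene lengths and coordinates; 53462 of 54532 genes matched GENCODE M21 coordinates. FPKM times length was a whole number of steps in 100% of values above 0 (tolerance 0.02), which gave the reads per gene. The median-of-ratios factor was 1.02 in all libraries, so the deposited values already carry such a scaling.

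Genes with at least 1 FPKM in at least 3 of 6 libraries (13393) were compared on log2(FPKM + 1), a scale that understates changes of low genes, by limma 3.58.1 (lmFit, eBayes with trend, two-sided) in R 4.3.3, with Benjamini-Hochberg adjustment over all genes tested and 0.05 as the threshold. With 3 against 3 libraries, exact permutation cannot give a p under 0.1. For low genes, voom was run on the recovered reads of genes with at least 10 reads in at least 2 libraries, an alternative chosen after seeing the data, and pooled reads were compared as rates with exact 95% intervals. Both used the library sizes implied by the FPKM. Alternatives were pseudocounts of 0.1 and 0.5, no filter, TPM, median-of-ratios scaling, no trend, array weights, a replicate block, voom, removal of a length trend and leaving out each library. The script was tested on simulated data. Further software was Python 3.11.15, NumPy 2.4.6, SciPy 1.17.1, pandas 2.3.3, Matplotlib 3.10.9 and the data.table package (version 1.17.8).

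The 10 genes and all lists were chosen with earlier results of these data known. Named genes are the 10 members; of each list of related genes, those tested and past the threshold and up to 3 with the smallest p-values; of each marker list, up to 3 with the highest mean and any at 0 throughout; the 3 genes nearest in pattern to a member past the threshold; and Phf6. Hdac7, Siglech, Kdr, Emcn, Hoxaas3, Gm37818, Gm16140 and Cd5 were named after their values were seen. Results for 2 genes of the lists are not reported here. Labels do not say whether libraries come from separate animals, so p-values measure only the spread between these libraries, which may be technical. Every pair of replicates differed by more than sampling noise.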

Additional observations from a re-analysis of the deposited data

How the results depend on the processing

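Over all genes, 3539 passed the threshold. The number was 8461 with array weights, which gave WT 2 a weight of 0.0509, and between 1934 and 6967 with 1 library left out, highest without WT 2 and lowest without KO 2. Of the calls, 49.6% were higher in KO, against 67.8% on TPM. Of the 10 genes, 1 passed on FPKM; it was 2 with array weights and 2 after removal of the length trend (Ly6a and Cd44 in both), and 1 to 3 with a library left out, while the 1 gene on TPM was Kit, not Cd44. Groups did not overlap for 8 of the 10 genes, for 5 on TPM, and for 8 to 10 with a library left out. Over all genes with at least 1 read the share was 36.2% on FPKM with 6 libraries. It was not computed for TPM or with a library left out. Leaving out a library can only keep or raise such a count, so the rise adds no support. The related lists held 35 different genes past the threshold, 62 with array weights and 20 to 51 with a library left out. On the recovered reads, an alternative chosen after seeing the data, 4676 genes passed, 8977 with quality weights and 2445 (without KO 2), 2535 (KO 3), 2575 (KO 1) to 8703 (WT 2) with 1 library left out; of the 10 genes 4 passed, 6 with quality weights and 2 to 6 with a library left out. No direction was reversed among the 8 genes with alternatives; Hoxa9 and Hoxa10 had none. The cause of these shifts was not tested.

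Same-numbered libraries of the groups correlated in their deviations at 0.0954, 0.105 and -0.153, and those of different number at -0.195 to 0.232. No pairing by number was seen, but 3 libraries in each group cannot exclude it. With the replicate block, 2676 genes passed on FPKM, with 1 of the 10 genes and 33 of the list genes, and on reads 4013 genes and 5 of the 10, with Kit lost (voom, adjusted p = 0.0589) and Cd34 and Ly6a gained (voom, adjusted p = 0.0128 and 0.0443). The depth limits 6 genes, Cd34, Meis1, Hoxa7, Hoxa9, Hoxa10 and Mef2c, which had at most 5 reads over the KO libraries together.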

Other observations

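Hoxaas3, an antisense transcript that overlaps Hoxa7, had 3, 5 and 6 reads in WT 1 to WT 3 and 1, 0 and 0 in KO 1 to KO 3. No test was run on this transcript, which was picked with its values in view.

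Ly6d, an early B cell marker of the Ly6 family, had 5.57, 428 and 5.03 FPKM in WT 1 to WT 3 and 418, 507 and 568 in KO 1 to KO 3. WT 2 lay within the KO range, and the difference did not pass the threshold (log2 fold change 4.27, limma, adjusted p = 0.104), while without WT 2 it did (limma, adjusted p = 2.81e-05).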
